A study of Mus musculus with 9 samples.

Results

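In 250 genes of the embryonic mouse heart, transcript levels were ordered by the number of mutant *Ctcf* alleles, with no overlap between genotypes. The members were chosen by the measured values themselves. Among genes averaging 1 TPM or more across the 9 libraries, those were kept whose 3 heterozygous values all lay above the highest wild-type and below the lowest homozygous value, or the reverse. TPM is a measure of transcript abundance in which reads are divided by transcript length and each library is brought to the same total. Of 13682 genes, 259 met this rule, which is 1.89%. For 230 (1.68%) the level was higher with more mutant alleles and for 29 (0.212%) it was lower. *Ctcf*, 6 other named genes and the clustered protocadherin, complex I and ribosomal protein genes were set aside by name, which removed 9 genes that met the rule and left 225 higher and 25 lower. Because the rule used every value of every genotype, the order of the genotypes at these genes is a description and was not tested.

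The hearts were taken at E18.5 from C57BL/6N embryos without, with 1 or with 2 copies of the CTCF-R567W mutation (wild type, heterozygous and homozygous), an amino-acid substitution made by CRISPR/Cas9 editing and inherited through the germ line. There were 3 libraries per genotype, each from poly-A RNA of whole heart tissue that was collected in a tube of its own. Whole hearts hold several cell types, so fewer cells of a type and less RNA per cell cannot be told apart. TPM keeps no depth, and the spread between the 3 libraries is the only error given below.

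CTCF is a zinc-finger protein that binds DNA at a long, well conserved motif. Together with the cohesin ring it anchors chromatin loops and the borders of topologically associating domains, and it can bring enhancers near promoters or keep them apart. In developing cardiomyocytes many genes of contraction and energy metabolism are under distal enhancers.

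The scale of the values bears on every count that follows. Over all 13682 genes the median difference between homozygous and wild-type means was 0.23 on the log2(TPM + 1) scale, and 81.7% of genes had the higher mean in homozygous hearts. The median of the 225 higher genes was 0.57, or 0.34 relative to that of all genes, and the median of the 25 lower genes was -0.86, or -1.09 relative to it. After median-ratio scaling, which moves the median of all genes to 0.01, 67 genes met the rule as higher and 195 as lower. The share of higher genes thereby went from 90.0% to 25.6%. It was 33.6% after quantile normalization (46 higher, 91 lower) and 32.6% after a correction for GC content and transcript length (59 higher, 122 lower), and 85.2% after rescaling without mitochondrially encoded and haemoglobin genes (241 higher, 42 lower). Higher genes thus outnumbered lower genes on the TPM scale and in 1 of the 4 other scalings, and were outnumbered by them in the other 3.

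**Figure D1:**
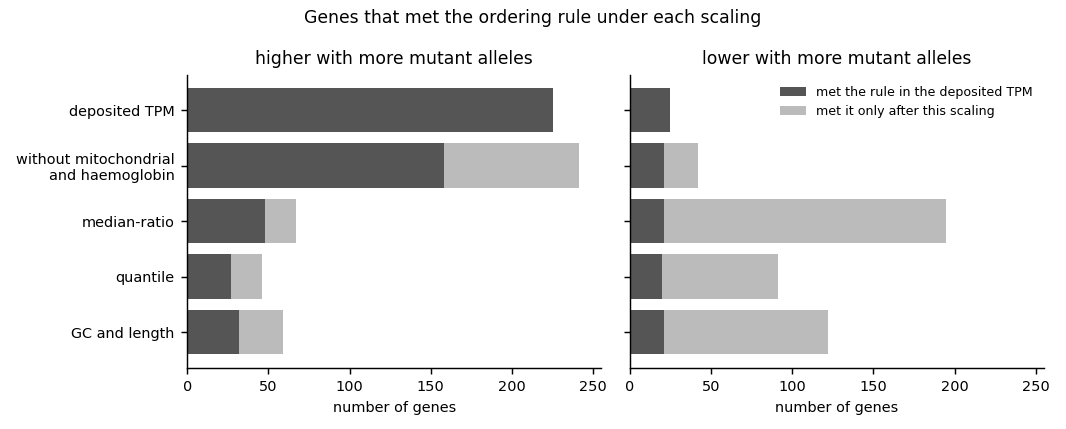
Number of genes (horizontal axis) that met the ordering rule as higher (left) or lower (right) in the deposited TPM and after each of 4 other scalings. Dark bars are genes that also met it in the deposited TPM and pale bars those that met it only after the scaling; the dark part falls from 225 to 48 under median-ratio scaling on the left and from 25 to 21 on the right.

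Changing the scale shifts all genes, and 3 of the 4 other scalings lowered the median of all genes from 0.23 to 0.01. Such a shift bears unequally on higher and lower members, and its part in which members kept their order was not tested. Of the 25 lower genes, 19 (76.0%) met the rule under all 4 other scalings, against 15 of the 225 higher genes (6.67%), counts that do not compare the directions. Median-ratio scaling alone kept 21 of 25 (84.0%) and 48 of 225 (21.3%). The 19 were *Spp1*, *Gpnmb*, *S100a1*, *Kcne1*, *Rxfp1*, *Opn4*, *Epdr1*, *Man2b2*, *Gstm6*, *Tstd3*, *Dhrs13*, *Dtd1*, *Pstk*, *Zdhhc2*, *Uqcrh*, *Gm12854*, *Gm13139*, *Gm13248* and *3222401L13Rik*. Among the 15 were *Arhgap36*, *BB114814*, *Ccdc137*, *D030028A08Rik*, *Gm20186*, *Gm7694*, *Map7*, *Mfng*, *Slc12a9*, *Slc1a3*, *Slc28a2*, *Slc37a3*, *Ubn1* and *Zfp512b*.

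Summed over the higher genes, TPM was 2738, 2771 and 3114 in the wild-type, 3496, 3452 and 3509 in the heterozygous and 4163, 4177 and 4465 in the homozygous libraries. Summed over the lower genes it was 5292, 5071 and 5201, then 4645, 4607 and 4575, and then 4170, 4133 and 3923. Most higher genes were of modest abundance, with a median of 8.99 TPM and 3 genes (1.33%) at 100 TPM or more, against 12.0 TPM and 6.97% over all genes. Among the lower genes 7 (28%) reached 100 TPM, with a median of 10.3 TPM.

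**Figure D2:**
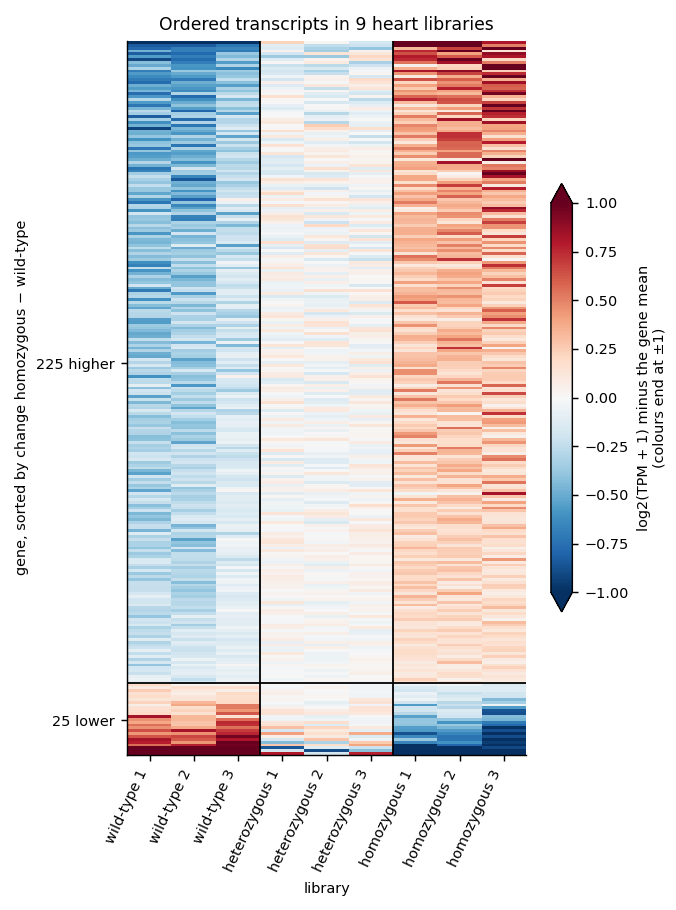
Level of each of the 250 ordered genes (rows, sorted by the difference between homozygous and wild-type means) in the 9 libraries (columns), as log2(TPM + 1) minus the gene's mean, with colours ending at ±1. The rule fixes the order of the 3 blocks; within the wild-type block replicate 3 lies nearest the heterozygous values in most of the 225 higher genes, and within the homozygous block replicate 3 is the lowest in 18 of the 25 lower genes.

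Single libraries set where the limits fell. Among the higher genes wild-type replicate 3 was the wild-type library nearest to the heterozygous values in 167 of 225 (74.2%), and its median deviation over all genes was 0.04 on the log2 scale, against -0.23 and -0.18 in the other 2 wild-type libraries. Without it 860 genes met the rule as higher and 42 as lower. Without homozygous replicate 3 there were 706 and 31, and without heterozygous replicate 1, 2 or 3 there were 367, 448 and 372 higher genes. Leaving out wild-type replicate 2 gave 256 higher and 40 lower genes. Among the lower genes homozygous replicate 3 had the lowest value in 18 of 25 (72.0%) and wild-type replicate 3 the highest in 15 (60.0%).

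Libraries also differed in transcripts of other organs and in sex. Homozygous replicate 3 held 889 TPM of 15 thymocyte markers and 229 TPM of 6 thymic epithelial markers, against 10.1 to 17.4 and 3.04 to 10.3 TPM in the other 8 libraries. It also had the lowest sum of 6 cardiomyocyte markers, 18979 TPM, where the highest library reached 29634. The sum of airway and lung markers was highest in the first wild-type and the first heterozygous library (3624 and 1632 TPM), and the latter also had 4188 TPM of liver markers. *Xist* was between 87.8 and 146 TPM in wild-type replicate 1, all heterozygous libraries and homozygous replicate 1 and at most 0.05 TPM in the others, so the heterozygous libraries were of 1 sex and the other genotypes of both. None of the thymus, lung, liver or neuron markers and none of the 5 sex-linked markers was among the 250 genes. The sex-linked markers differed within the wild-type and within the homozygous hearts, so they could not meet the rule. Thymus, lung and liver markers were highest in single libraries, so their absence is no measure of such transcripts in the members. The part of the differences between libraries in the members' order was not tested. Without wild-type replicate 1, heterozygous replicate 1 and homozygous replicate 3 together 1212 genes met the rule as higher and 78 as lower, counts that can only grow when libraries are left out.

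The lower genes included *S100a1* and *Kcne1*, which act in cardiac contraction and excitation. *S100a1* encodes a calcium-binding protein of the heart muscle that acts on the ryanodine receptor and the calcium pump of the sarcoplasmic reticulum. Its TPM was 295, 271 and 316 in wild-type, 210, 208 and 209 in heterozygous and 164, 164 and 156 in homozygous hearts. The 3 genotypes were far apart for their spread, with means of 294 ± 22.2, 209 ± 0.966 and 162 ± 4.56 (SD, n = 3 each), and the log2 difference between homozygous and wild type was -0.86 (-0.87 to -1.11 under the other scalings). *Kcne1*, the accessory subunit of the slow delayed-rectifier potassium channel, had 96.3, 98.2 and 125 TPM in wild-type, 89.8, 87.0 and 96.2 in heterozygous and 75.4, 70.7 and 58.3 in homozygous hearts. Here wild-type and heterozygous values almost touched, at 96.3 and 96.2 TPM, while the homozygous values lay clear below both. Of 49 genes of calcium handling and ion channels these 2 were lower (4.08%, beside 0.212% of all genes) and 0 were higher (beside 1.68%). The median log2 difference of the list was 0.24, close to the 0.23 of all genes.

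*Spp1* and *Gpnmb* had large relative differences. *Spp1* encodes osteopontin, a secreted phosphoprotein of the matrix made by macrophages and other cells, and had 8.90, 7.41 and 12.8 TPM in wild-type, 1.85, 0.74 and 1.43 in heterozygous and 0.43, 0.52 and 0.30 in homozygous hearts. The heterozygous hearts were already near the homozygous ones, at 0.76 of the distance from the wild-type to the homozygous mean on the log2 scale, and the log2 difference of homozygous from wild-type means was -2.89. *Gpnmb*, a membrane glycoprotein of macrophages, had 2.96, 2.12 and 5.47 TPM in wild-type, 0.70, 0.85 and 1.76 in heterozygous and 0.45, 0.51 and 0.19 in homozygous hearts. The macrophage markers *Adgre1* and *Csf1r* summed to 5.67 to 6.67 TPM in wild-type, 3.49 to 6.64 in heterozygous and 6.27 to 9.34 in homozygous hearts. Of 22 macrophage genes *Gpnmb* was the only member (4.55%, beside 0.212% lower of all genes). Of 50 extracellular matrix genes *Spp1* was the only member (2%, beside the same 0.212%). In both lists 0 genes were higher, beside 1.68% of all genes.

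Genes of the mitochondrial respiratory chain were among the abundant lower transcripts. *Uqcrh*, a hinge subunit of complex III, had 1444, 1379 and 1418 TPM in wild-type, 1278, 1289 and 1236 in heterozygous and 1179, 1137 and 1107 in homozygous hearts. *Atp5l*, a subunit of the ATP synthase, had 1214, 1094 and 1059, then 1044, 1016 and 996, and then 896, 931 and 930 TPM. The steps were even and small for both genes, with log2 differences between homozygous and wild type of -0.31 and -0.29. *Atp5j2*, another ATP synthase subunit, went from 621 ± 20.5 TPM in wild-type over 559 ± 15.6 to 512 ± 5.45 in homozygous hearts, and *Cox7b*, a subunit of complex IV, from 551 ± 36.8 over 512 ± 3.99 to 488 ± 19.4 (SD, n = 3 each). *Uqcc2*, an assembly factor of complex III, had 188 ± 8.61, 173 ± 5.17 and 153 ± 9.67 TPM. *Uqcrh* kept its order under all 4 other scalings, *Uqcc2* under 2, *Atp5j2* and *Atp5l* under 1 and *Cox7b* under 0. Of 46 oxidative phosphorylation genes outside complex I, 4 were lower (8.70%, beside 0.212% of all genes) and 0 were higher (beside 1.68%). In 38 of them the mean was lower in homozygous hearts. The median log2 difference of that list was -0.10 and ranged from -0.06 to -0.35 under the other scalings.

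*Cryab*, a small heat-shock protein that protects desmin and titin in heart muscle, had 610, 614 and 639 TPM in wild-type, 573, 559 and 609 in heterozygous and 549, 520 and 414 in homozygous hearts. Wild type and heterozygous nearly met at 610 and 609 TPM, and the homozygous value of 414 stood apart in the library with thymic transcripts, without which the log2 difference went from -0.34 to -0.22. It was the only member among 46 sarcomere and myofibril genes (2.17%, beside 0.212% lower of all genes).

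*Rxfp1*, the relaxin receptor, had 18, 18.7 and 21.8 TPM in wild-type, 17.7, 16.8 and 17.6 in heterozygous and 13.9, 14.4 and 8.30 in homozygous hearts, and its log2 difference of -0.67 became -0.43 without homozygous replicate 3. *Epdr1*, an ependymin-related lysosomal protein, had 13.7, 12.9 and 14.7 TPM, then 12.2, 11.4 and 10.5, and then 6.30, 6.78 and 4.39. In both genes the heterozygous hearts stayed near wild type, at 0.23 and 0.22 of the distance. *Opn4*, which encodes the light-sensing pigment melanopsin and is known from the retina, had 2.24, 2.68 and 2.36 TPM, then 0.85, 1.22 and 0.94, and then 0.40, 0.40 and 0.13.

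Several lower genes encode enzymes. *Man2b2*, a mannosidase of glycoprotein breakdown, had 6.62, 7.84 and 9.07 TPM in wild-type, 5.24, 4.84 and 5.79 in heterozygous and 1.32, 1.98 and 1.28 in homozygous hearts. *Tstd3*, a rhodanese-domain protein, had 12.0, 12.2 and 15.3, then 11.8, 9.71 and 11.4, and then 4.24, 5.12 and 3.58 TPM. Both were much lower in homozygous than in heterozygous hearts, which lay at 0.27 and 0.17 of the distance from wild type, the latter the lowest position among the 25. *Gstm6*, a glutathione transferase of the mu class, had 4.98, 4.16 and 4.90, then 2.0, 3.12 and 2.26, and then 1.59, 1.03 and 0.47 TPM, with the heterozygous hearts at 0.48. *Dhrs13*, a short-chain dehydrogenase, had 6.11 ± 1.09, 3.93 ± 0.478 and 2.46 ± 0.509 TPM (SD, n = 3 each). *Dtd1*, which clears D-amino acids from transfer RNA, had 11.7 ± 3.24, 7.91 ± 0.254 and 6.08 ± 0.870 TPM, and *Pstk*, a kinase on the way to selenocysteine, 96.4 ± 4.59, 82.1 ± 7.12 and 66.9 ± 3.16 TPM. *Zdhhc2*, a palmitoyl transferase, had 16.7, 16.1 and 22.7, then 16.1, 15.6 and 15.6, and then 11.7, 12.7 and 7.39 TPM. *Pstk* shared 58.7% of its 31-base words with transcripts of other genes, *Ikzf5* among them, so the assignment of its reads is uncertain.

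A further group of lower transcripts is listed in the table under catalogue symbols. *Gm12854*, annotated as a processed pseudogene on the strand opposite *Uqcrh*, had 8.32, 14.2 and 12.0 TPM without the mutation and 6.17, 2.64 and 6.01 in heterozygous hearts, and it was listed at 0 in all 3 homozygous hearts. It lies at chr4:116067268-116067564 (mm10) within *Uqcrh* (chr4:116066965-116075071), and the counting is not known to use strand, so reads of the pair may not be separable. Of its 31-base words 85.8% occur in transcripts of other genes, *S100a11*, *Gm7665* and *Gm29240* among them, so its level is uncertain. *Gm13139* had 4.37 ± 0.687, 2.18 ± 0.271 and 0.883 ± 0.166 TPM and the widest smaller gap between neighbouring genotypes among the lower genes, 0.49 on the log2 scale, but shares 88.0% of its words with other zinc-finger genes. *Gm13248* had 4.49, 11.5 and 4.35, then 0.42, 1.40 and 1.22, and then 0.30, 0 and 0.38 TPM. *3222401L13Rik* had 2.28 ± 0.573, 1.49 ± 0.183 and 0.60 ± 0.183 TPM (SD, n = 3 each).

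**Figure D3:**
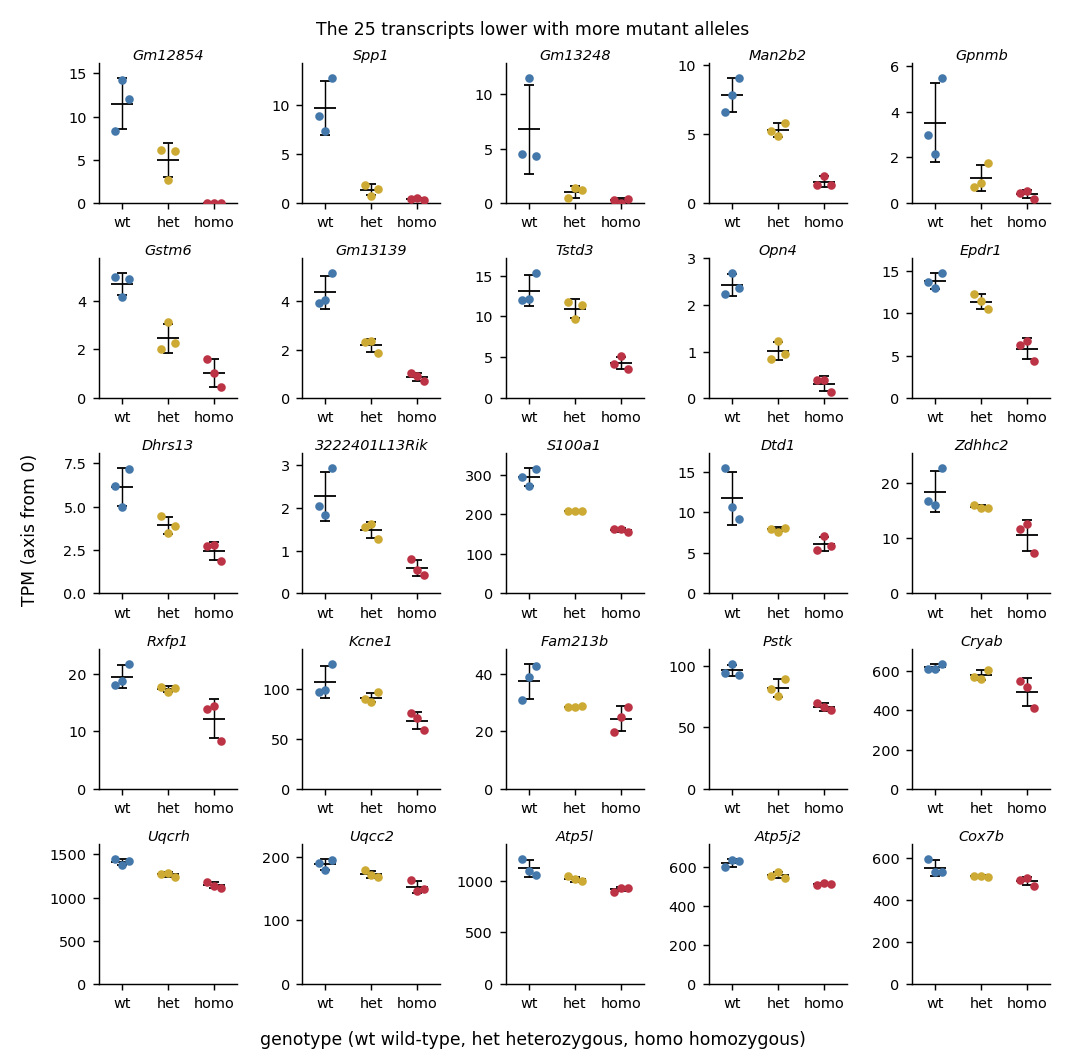
TPM of the 25 lower genes by genotype (3 points per genotype, 1 per library, with mean and SD), each on its own axis from 0 and in the order of the difference between homozygous and wild-type means. *Gm12854* is at 0 in all homozygous hearts, while *Cox7b*, the last panel, goes from 551 to 488 TPM.

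Among the higher genes the noncoding transcript *Gm20186* had the largest difference and the widest separation. It had 1.40, 1.52 and 0.86 TPM in wild-type, 4.86, 4.07 and 3.45 in heterozygous and 12.9, 10.1 and 7.81 in homozygous hearts. Its log2 difference was 2.30, with 2.04 to 2.40 under the other scalings, and neighbouring genotypes were at least 0.59 apart. It is annotated as a lincRNA at chr6:18845910-18848207 on the minus strand of mm10, opposite *Gm26809*, with which and with other transcripts it shares 80.5% of its words. The X-linked *Arhgap36*, a protein of Hedgehog and protein kinase A signalling, had 0.54, 0.54 and 0.65 TPM in wild-type, 1.53, 1.30 and 1.36 in heterozygous and 5.77, 5.08 and 2.87 in homozygous hearts. The homozygous heart with *Xist* had 5.77 TPM and those without it 5.08 and 2.87 TPM, and the gene kept its order under all 4 other scalings.

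Some of the higher genes act on chromatin and transcription. *Kmt2a*, a histone H3 lysine 4 methyltransferase, had 3.37, 5.04 and 6.55 TPM in wild-type, 7.33, 8.32 and 8.22 in heterozygous and 10.1, 9.20 and 9.91 in homozygous hearts. It was the only member on a list of 79 chromatin modifiers and remodellers (1.27%, beside 1.68% higher of all genes). The list is not complete. *Ehmt2* and *Baz1b*, named here after their values were seen, were higher genes outside it. *Pds5b*, a cohesin regulator with 11.1 ± 1.94, 15.1 ± 1.5 and 20.8 ± 6.20 TPM (SD, n = 3 each), was the only one among 29 loop and cohesin factors (3.45%). These lists had median log2 differences of 0.37 and 0.32, above the 0.23 of all genes, although few of their members met the rule. *Zfp512b*, a zinc-finger protein, had 15.9, 13.7 and 21.5 TPM, then 27.4, 21.6 and 24.8, and then 36.7, 35.9 and 31.1. *Ubn1*, a subunit of the HIRA histone chaperone complex, had 11.0 ± 1.66, 14 ± 0.485 and 16.8 ± 0.095 TPM (SD, n = 3 each). Both kept their order under all 4 other scalings, *Kmt2a* under 1 and *Pds5b* under 0.

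Zinc-finger genes with the symbol *Zfp* supplied 11 of the higher genes out of 316 (3.48%), beside 1.68% of all genes, and 0 of the lower genes, beside 0.212%. They were *Zfp189*, *Zfp512b*, *Zfp451*, *Zfp711*, *Zfp963*, *Zfp263*, *Zfp37*, *Zfp942*, *Zfp846*, *Zfp219* and *Zfp316*, with log2 differences of 0.45 to 1.08. The family as a whole had a median of 0.45, and 0.19 to 0.43 under the other scalings. The ubiquitin conjugation and removal genes gave 7 of 251 (2.79%) and the *Ccdc* genes 4 of 89 (4.49%).

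Several RNA-binding proteins were among the higher genes. *Snrnp70*, a core protein of the U1 particle of the spliceosome, had 167, 180 and 194 TPM in wild-type, 205, 209 and 219 in heterozygous and 237, 224 and 294 in homozygous hearts. *Rbm5*, a splicing regulator, had 45.4, 36.6 and 55.7, then 64.6, 58.0 and 59.6, and then 75.3, 69.2 and 85.2 TPM. *Luc7l2*, which associates with the U1 particle, had 62.1, 78.1 and 82.6, then 83.4, 84.0 and 82.8, and then 89.0, 86.6 and 91.5 TPM. In *Luc7l2* the genotypes were hardly apart, at 82.6 and 82.8 TPM, the log2 difference of 0.27 fell to 0.15 without wild-type replicate 1, and it was -0.0017 after the correction for GC content and length. Of 79 splicing factors these 3 were higher (3.80%, beside 1.68% of all genes) and 0 were lower (beside 0.212%). *Rbpms*, an RNA-binding protein of the muscle lineage, had 129, 133 and 141, then 146, 149 and 150, and then 158, 154 and 173 TPM. *Ogt*, the X-linked enzyme that adds N-acetylglucosamine to nuclear and cytoplasmic proteins, had 83.0 ± 10.5, 101 ± 3.75 and 120 ± 13 TPM (SD, n = 3 each). Of *Snrnp70*, *Luc7l2*, *Rbpms* and *Ogt* none kept its order under any of the other scalings.

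Solute carriers, the membrane transporters of small molecules, gave 10 higher genes out of 215 (4.65%, beside 1.68% of all genes) and 0 lower genes (beside 0.212%). *Slc2a3*, the high-affinity glucose transporter GLUT3, had 3.38, 3.56 and 3.84 TPM in wild-type, 4.79, 4.51 and 5.59 in heterozygous and 7.83, 9.35 and 9.86 in homozygous hearts. *Slc1a3*, a glutamate transporter, had 1.05, 1.15 and 1.53, then 2.02, 1.71 and 1.75, and then 2.74, 3.68 and 3.87 TPM. In both the step between heterozygous and homozygous hearts was the larger, with positions of 0.33 and 0.35. *Slc28a2*, a nucleoside transporter, had 1.96 ± 0.363, 3.51 ± 0.240 and 5.26 ± 1.43 TPM, *Slc37a3* 13.1 ± 2.03, 17.3 ± 0.511 and 25 ± 4.51 TPM, and *Slc12a9* 3.18 ± 0.186, 4.80 ± 0.177 and 6.56 ± 0.362 TPM (SD, n = 3 each). The other members were *Slc35f1*, *Slc25a51*, *Slc5a3*, *Slc35c1* and *Slc2a13*, with log2 differences of 0.43 to 0.88. The median of the whole family was 0.25, near that of all genes.

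Lysosomal and autophagy genes were found on both sides. *Man2b1*, the lysosomal alpha-mannosidase, had 14 ± 0.636, 15.7 ± 0.830 and 19.9 ± 2.13 TPM (SD, n = 3 each), while its relative *Man2b2* was among the lower genes. *Ulk1*, the kinase that starts autophagy, had 18.9, 22.8 and 22.2, then 23.5, 25.1 and 23, and then 30.5, 33.0 and 27.2 TPM. *Cln3*, a lysosomal membrane protein, had 3.88, 5.56 and 6.25, then 7.18, 6.49 and 7.19, and then 7.37, 7.41 and 12.0 TPM, with the highest value in homozygous replicate 3. Of 62 genes 3 were higher (4.84%, beside 1.68% of all genes) and 1 was lower (1.61%, beside 0.212%). *Man2b2* kept its order under all 4 other scalings, *Man2b1* under 1 and *Ulk1* and *Cln3* under 0.

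Signalling and cytoskeletal genes followed. *Smad3*, which carries transforming growth factor beta signals to the nucleus, had 11.5 ± 0.689, 13.4 ± 0.265 and 16.9 ± 1.70 TPM. It was the only member among 57 Notch, BMP, Wnt and neuregulin genes (1.75%, beside 1.68% higher of all genes). *Mfng*, a glycosyltransferase that modifies Notch receptors, had 5.21, 5.11 and 6.34, then 7.80, 6.77 and 9.01, and then 9.95, 14.7 and 12.7 TPM. *Map7*, a microtubule-associated protein that recruits kinesin, had 3.67, 3.52 and 3.46, then 5.0, 6.04 and 5.84, and then 7.65, 8.41 and 8.98 TPM. In *Map7* the 3 wild-type hearts were nearly alike, and both genes kept their order under all 4 other scalings. *Rhof*, a small GTPase of filopodia, had 0.81 ± 0.151, 1.51 ± 0.142 and 2.7 ± 0.478 TPM. *Ddit4*, an inhibitor of mTORC1 that responds to low oxygen and stress, had 21.2 ± 3.27, 27.7 ± 2.68 and 34.9 ± 3.89 TPM (SD, n = 3 each). It was the only member among 28 genes of the integrated stress response (3.57%, beside 1.68% higher of all genes).

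Other large differences among the higher genes were those of *Ccdc137*, *Spock2*, *Smim24* and *Sqrdl*. *Ccdc137*, a nucleolar coiled-coil protein, had 6.97, 7.23 and 9.84, then 11.4, 14.5 and 14.3, and then 20.9, 17.7 and 25.1 TPM. *Spock2*, a secreted proteoglycan, had 8.15, 6.94 and 6.85, then 12.1, 9.01 and 12.1, and then 20.5, 29.0 and 12.9 TPM, so that 1 homozygous heart stood close to the heterozygous ones. *Sqrdl*, the mitochondrial sulfide quinone oxidoreductase, had 4.16 ± 0.633, 5.35 ± 0.674 and 10.5 ± 2.59 TPM and *Smim24*, a small membrane protein, 3.12 ± 0.375, 4.79 ± 0.858 and 8.41 ± 1.21 TPM (SD, n = 3 each).

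In 89 of the 225 higher genes (39.6%) the highest value was in homozygous replicate 3, the library that held thymic transcripts. It was in homozygous replicate 1 in 54 (24.0%) and in homozygous replicate 2 in 82 (36.4%). *Hmga1*, an architectural chromatin protein, had 68.5, 72.4 and 68.1 TPM in wild-type, 82.9, 79.4 and 78.3 in heterozygous and 89.4, 83.7 and 137 in homozygous hearts. Its log2 difference was 0.53, and 0.31 without homozygous replicate 3. *Ache*, acetylcholinesterase, had 1.76, 1.95 and 2.01, then 3.35, 2.83 and 2.65, and then 5.01, 6.61 and 17.6 TPM, with a difference of 1.70 and of 1.22 without that library.

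**Figure D4:**
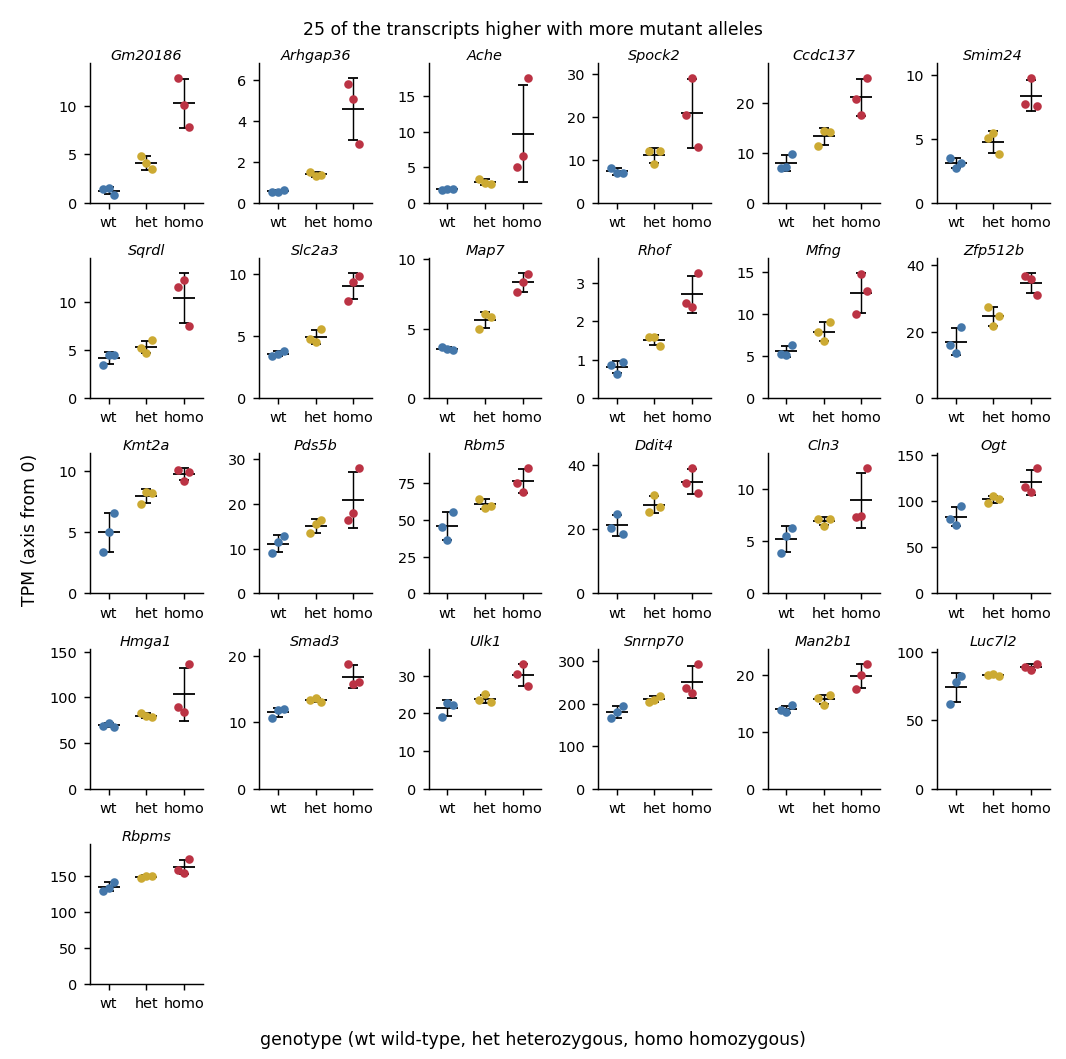
TPM of 25 higher genes by genotype (3 points per genotype, 1 per library, with mean and SD), each on its own axis from 0 and sorted by the difference between homozygous and wild-type means. In *Ache* and *Hmga1* homozygous replicate 3 (17.6 and 137 TPM) stands above the other homozygous hearts, while in *Map7* and *Slc2a3* the 3 lie together.

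Heterozygous hearts lay close to the middle for most members. On the log2 scale the median position between the wild-type mean (0) and the homozygous mean (1) was 0.51 for the higher genes, with a range of 0.18 to 0.78, and 0.48 for the lower genes, with a range of 0.17 to 0.76. In 138 of the 225 higher and 11 of the 25 lower genes the position was between 0.4 and 0.6. On the TPM scale the medians were 0.44 and 0.57. The rule admits only genes with heterozygous values between the others, so a position inside these bounds is given by the choice of members. Over all genes the median differences were 0.15 between heterozygous and wild-type and 0.08 between homozygous and heterozygous means.

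Many members met the rule by little. The smaller of the gaps between neighbouring genotypes was under 0.05 on the log2 scale in 133 of the 225 higher and 10 of the 25 lower genes, and at least 0.1 in 32 and 11. The members just inside were *Fam213b* (28.40 against 28.38 TPM) and *Lrwd1* (8.280 against 8.290 TPM), and just outside were *Cdk9* (38.83 against 38.82 TPM) and *Ddx39b* (186.1 against 186.0 TPM). At the limit on abundance *Gm28370* and *D030028A08Rik*, with means of 1.033 and 1.073 TPM, were inside, and *Cilp2* and *Rnd1*, with 0.967 and 0.910 TPM, outside. *Fam213b*, a prostamide synthase, had 30.7, 38.9 and 42.6 TPM in wild-type, 28.5, 28.4 and 28.7 in heterozygous and 19.7, 25.1 and 28.4 in homozygous hearts.

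Transcript length was not used by the rule and differed between the directions. The longest annotated transcript had a median of 4091 bases for the higher and 1946 bases for the lower genes, against 3265 bases over all genes. Under 1500 bases there were 8 of 224 matched higher genes (3.57%), 9 of 24 matched lower genes (37.5%) and 15.2% of all genes. GC content differed little, with medians of 50.8%, 49.1% and 49.8%. The correction above for GC content and length together also moved the median of all genes to 0.01. After it 59 genes met the rule as higher, of which 32 were members. After median-ratio scaling, which has no length term, 67 genes met it as higher, of which 48 were members. Protein-coding genes made up 97.8% of the higher and 91.7% of the lower genes, and 92.4% of all genes.

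**Figure D5:**
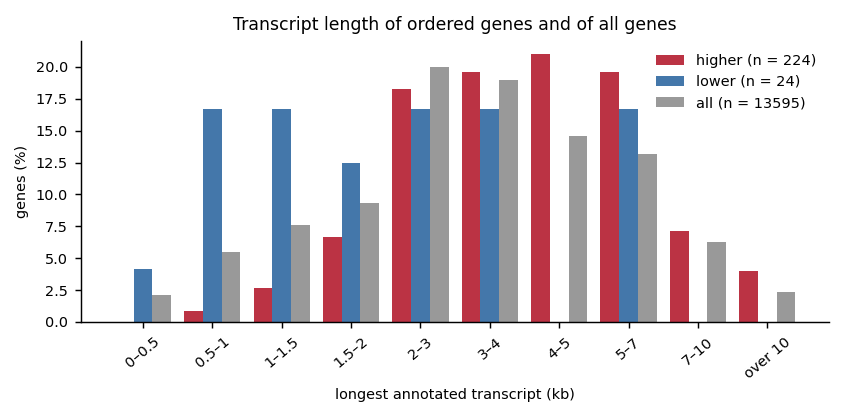
Share of the 224 higher, 24 lower and 13595 tested genes matched to GENCODE M21 (vertical axis, %) by the length of the longest annotated transcript (horizontal axis, kb, in classes of unequal width). Higher genes are rare under 1.5 kb (3.57%) and lower genes frequent there (37.5%).

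The share of members among the tested genes of a chromosome was not compared between chromosomes by a test and, apart from the Y with 0 of 5, ran from 0.868% on chromosome 19 to 2.72% on chromosome 16. Chromosome X held 8 higher genes (3.57%) and 1 lower gene, against 3.38% of all genes. Another member lay less than 100 kb away for 26 higher genes (11.6%) and 4 lower genes (16.7%), and for 7.31% of all genes. These made 15 pairs, of which 12 were both higher, 1 both lower and 2 in opposite directions. The pair that was both lower was *Uqcrh* with *Gm12854*, which lies within it, so their reads may not be separable. The opposite pairs were *Itpr3*, an inositol trisphosphate receptor, with *Uqcc2* on chromosome 17, and *Kmt2a* with *Atp5l* on chromosome 9, where the genes were 0.440 kb and 31.3 kb apart.

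*Itpr3* (chr17:27057304-27122223) had 2.90, 3.12 and 2.80 TPM in wild-type, 4.04, 3.25 and 3.32 in heterozygous and 4.85, 5.03 and 5.34 in homozygous hearts, while *Uqcc2* (chr17:27122663-27133916), which runs towards it, was lower in the same hearts, as given above. Of the pairs that were higher together, *Nmt2* and *Rpp38* on chromosome 2 end 0.0720 kb apart, *Cyp4f17* and *Cyp4f16* are neighbours of 1 enzyme family on chromosome 17, and *Enpp5* and *Enpp4* are related genes that converge 9.74 kb apart on the same chromosome. *Cyp4f16* had 7.63 ± 0.746, 8.98 ± 0.0289 and 10.3 ± 1.02 TPM and shares 26.8% of its words with its relatives. *Enpp4* had 5.01 ± 0.958, 6.34 ± 0.349 and 7.71 ± 0.145 TPM and *Enpp5* 7.05 ± 0.624, 8.66 ± 0.759 and 10.3 ± 0.780 TPM (SD, n = 3 each). The other 9 such pairs were *Ddit4* with *Anapc16*, *Rnf187* with *Trim11*, *Foxn2* with *Ppp1r21*, *Syvn1* with *Zfpl1*, *Ache* with *Slc12a9*, *Gltscr1* with *Kptn*, *Dyrk1b* with *Eid2b*, *Neu3* with *Rnf169* and *Adgrl1* with *Il27ra*, with log2 differences between 0.38 and 1.70 for their genes.

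Promoter windows were searched for the CTCF core motif, a stretch of 12 bases read on both strands. The paper places the mutated residue in a zinc finger other than those it assigns to the core motif. It proposes weaker binding to a separate upstream motif, which was not searched. RefSeq windows of 300 bases (250 before and 50 after the start, GRCm38.p6) were matched for 186 higher genes, 15 lower genes and 10202 of all tested genes. The motif stood in a window of 1 higher gene (0.538%), 1 lower gene (6.67%) and 93 of all genes (0.912%). Both windows are printed because they are the only member promoters with the motif, which is in capitals. *Nifk*, which encodes a nucleolar protein that binds Ki-67, is named here because of the match and was chosen after its values were seen. Its window is chr1:118321593-118321892 on the plus strand, with the motif starting at position -97 from the start, and that of *Gstm6* is chr3:107943685-107943984 on the minus strand, with the motif starting at -164.
Nifk: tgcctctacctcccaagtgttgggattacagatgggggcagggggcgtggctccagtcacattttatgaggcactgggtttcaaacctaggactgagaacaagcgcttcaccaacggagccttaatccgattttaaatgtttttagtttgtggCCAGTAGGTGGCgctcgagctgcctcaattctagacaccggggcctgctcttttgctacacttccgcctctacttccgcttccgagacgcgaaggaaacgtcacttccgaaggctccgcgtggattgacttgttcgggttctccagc
Gstm6: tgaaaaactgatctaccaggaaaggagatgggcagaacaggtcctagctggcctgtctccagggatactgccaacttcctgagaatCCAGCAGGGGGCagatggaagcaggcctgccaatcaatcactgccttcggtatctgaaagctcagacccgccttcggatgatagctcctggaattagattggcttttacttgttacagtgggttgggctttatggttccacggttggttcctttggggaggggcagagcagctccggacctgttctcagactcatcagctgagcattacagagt

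*Nifk* had 14.1, 17.5 and 17.7 TPM in wild-type, 18.8, 17.8 and 20.3 in heterozygous and 21.5, 22.0 and 20.4 in homozygous hearts, so neighbouring genotypes nearly touched. In *Gstm6* they were apart by at least 0.21 on the log2 scale. The promoters of the lower genes had a median GC content of 54.7% and a CpG ratio (observed over expected) of 0.592, against 62.3% and 0.795 for the higher genes and 62.0% and 0.787 for all genes. A match of letters is not evidence of binding, and windows away from the start were not searched.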

How the data were processed

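Hearts of E18.5 embryos (3 wild type, 3 heterozygous, 3 homozygous) were sequenced by the authors, who trimmed reads with Trim Galore, aligned them to mm10 with STAR and quantified genes with RSEM. The deposited values are TPM per gene and library, which sum to between 998179 and 998491 over the symbols used. Which annotation release was counted, and whether by strand, is not given in the sources used here. TPM keeps no depth, so counting error is unknown and a count test was not made. The labels number the libraries without saying what the numbers share.

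Of 24597 symbols, 26 turned into dates were dropped. The rule was applied with Python (v3.11.15), pandas (v2.3.3) and NumPy (v2.4.6) and was tested on simulated data. Differences are between genotype means of log2(TPM + 1). Coordinates, biotypes and lengths came from GENCODE M21 (mm10), matched by symbol or synonym. The members and the 31 lists and 20 families were chosen with earlier results of these data known. Named genes were, in each direction, the 10 largest differences at a mean of at least 5 TPM, the 5 widest gaps, the 5 most abundant, members of lists, those within 100 kb of each other and those at the limits. Those that kept their order under every scaling, the remaining lower genes and the members of the *Zfp* and solute carrier families were named after their values were seen. Some genes that the rule names are not reported here. Alternatives were 3 scalings, pseudocounts of 0.1 and 5, other filters and leaving out each library; the correction for GC content and length, leaving out 3 libraries together and leaving out single libraries for the medians and single genes were chosen after seeing the data.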

Additional observations from a re-analysis of the deposited data

How the results depend on the processing

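The 225 higher and 25 lower genes became 67 and 195 after median-ratio scaling, 46 and 91 after quantile normalization, and 59 and 122 after the correction for GC content and length; 241 and 42 met the rule after rescaling without mitochondrially encoded and haemoglobin genes. At 5 TPM or more on average there were 162 and 16, without a filter 247 and 29, and with gaps of at least 0.1 there were 32 and 11, by the construction of these limits. Leaving out 1 library can only add genes and gave 256 to 860 higher and 28 to 42 lower genes, and leaving out 3 libraries with transcripts of other organs gave 1212 and 78. For the same genes, the median log2 difference of the higher genes (0.57) was 0.68 and 0.39 with pseudocounts of 0.1 and 5, 0.36 after median-ratio scaling, 0.32 after quantile normalization, 0.33 after the GC and length correction and 0.53 to 0.62 without single libraries. That of the lower genes (-0.86) was -0.58 with a pseudocount of 5, -1.11 after median-ratio scaling and after quantile normalization, and -0.92 to -0.83 without single libraries. The heterozygous position moved by less than its spread between genes in every setting. Of 1065 values for the 71 genes picked by the naming rule, 879 moved by less than the spread between replicates, 185 by more, and 1 reversed: *Luc7l2* was -0.0017 after the GC and length correction, under which 222 of the 225 higher genes stayed above 0. Apart from that construction and the limits above, the cause was not tested. No paired analysis was possible because the labels do not say what the replicate numbers share and no result comes from a test. Without read counts, low values such as those of *Gm13248* and *Opn4* have no counting error. With 3 libraries per genotype, the order of the 9 values chose each gene and is not a check on it.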
